A study of Mus musculus with 5 samples.

Results

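Livers of the inbred mouse strains C57BL/6J and RIIIS/J were set against livers of BALB/CByJ, FVB/NJ and NZW/LacJ, and the genes that separate the strains in this way are described. Members were chosen by these intensities themselves: a gene was a member when the lower value of C57BL/6J and RIIIS/J was above the highest value of the other 3 strains, or the higher value of C57BL/6J and RIIIS/J was below the lowest of the other 3. The distance between these nearest values, in log2 units, is called the gap, and it is negative for lower genes. By the deposited values 1523 of 18202 genes were members, 917 higher and 606 lower in C57BL/6J and RIIIS/J. A detection floor was set at an intensity of 8.48, the 95th percentile of 84 probe sets of odour, pheromone and taste receptor genes, and lower values were set to it. After this 1251 members were left among 11874 genes detected on at least 1 array, a share of 10.5%. Of these, 655 were higher (5.52% of detected genes) and 596 lower (5.02%). The gap was at least 2-fold for 10 higher genes (0.0842%) and 9 lower genes (0.0758%). The rule chose the members by these same values, so the shares are the background itself, nothing is read from them, and no gap below is tested.

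Each strain was measured on 1 array, on which liver RNA from 3 males, untreated and 10 weeks old, was pooled, so the 5 arrays give no replicate check, and their number limits the precision of every comparison. No strain was treated, and no allele is named in the labels. The values are intensities in arbitrary units, for which the processing notes name GCRMA, a method that corrects background by probe sequence and normalises arrays together. In a pool of whole liver, fewer cells of a type and less RNA per cell cannot be told apart, nor can strain be told apart from the array, the pool or the time of collection.

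Inbred strains are each nearly homozygous, so a sequence variant shared by some strains and absent from others is carried by every animal of a strain. The liver expresses large families of neighbouring genes that arose by duplication, among them the Cyp2c cytochrome P450 enzymes, which oxidise fatty acids, retinoids and drugs. The Trim genes next to Trim5 encode ubiquitin ligases of antiviral defence, and many of them respond to interferon.

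On the most intense probe set of each gene, the largest gaps in both directions lay in the Cyp2c family, where Cyp2c37, an arachidonic acid hydroxylase gene, was higher and Cyp2c39, a retinoic acid hydroxylase gene, was lower in C57BL/6J and RIIIS/J. Their start regions are printed to compare these genes, which belong to the same cluster but are not adjacent. The sequences are those of RefSeq for GRCm38.p6, from 250 bases before to 50 after the start, and the mouse reference is C57BL/6J, so they show 1 of the 5 strains. For Cyp2c39 the first of its entries is given. The pair was identical at 200 of 275 aligned bases (72.7%), with 50 gap bases left out, and no unrelated windows were aligned for comparison. Capitals mark the 3 shared runs of at least 10 bases, the longest of 13.
Cyp2c37, chr19:39992174-39992473, plus strand: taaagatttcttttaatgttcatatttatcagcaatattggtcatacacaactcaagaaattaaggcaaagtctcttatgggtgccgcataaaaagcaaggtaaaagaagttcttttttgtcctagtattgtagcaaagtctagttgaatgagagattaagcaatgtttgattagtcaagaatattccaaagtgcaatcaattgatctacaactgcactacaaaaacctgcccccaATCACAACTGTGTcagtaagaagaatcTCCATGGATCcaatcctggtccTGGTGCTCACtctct
Cyp2c39, chr19:39347096-39347395, plus strand: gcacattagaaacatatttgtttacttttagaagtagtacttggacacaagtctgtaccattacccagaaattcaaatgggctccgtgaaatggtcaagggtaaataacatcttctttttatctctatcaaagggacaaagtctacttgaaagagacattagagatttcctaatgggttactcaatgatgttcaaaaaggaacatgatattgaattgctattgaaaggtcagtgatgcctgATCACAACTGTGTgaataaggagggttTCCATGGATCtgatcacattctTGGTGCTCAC

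Cyp2c37 read 37234 in C57BL/6J and 47003 in RIIIS/J, against 29.5 in BALB/CByJ, 28.9 in FVB/NJ and 18.7 in NZW/LacJ. C57BL/6J and RIIIS/J were high and the other 3 strains low, with no overlap and a gap of 10.30 on the log2 scale. Cyp2c37 had 1 probe set with a single gene, so no second reading was at hand. Cyp2c39 read 6.25 in C57BL/6J and 19.5 in RIIIS/J, against 248 in BALB/CByJ, 631 in FVB/NJ and 157 in NZW/LacJ. It was below the floor in C57BL/6J and low in RIIIS/J, and the gap to the other strains was -3.01.

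The order of the strains in these genes was not that of the whole cluster on chromosome 19, which holds 14 genes that are not pseudogenes in the reference. Of these, 10 were on the array and 9 were detected. Cyp2c55, which also oxidises arachidonic acid, read 835 in C57BL/6J and 1037 in RIIIS/J, against 203 in BALB/CByJ, 71.6 in FVB/NJ and 714 in NZW/LacJ. The gap was 0.23, and NZW/LacJ lay close to the high strains. Cyp2c29, a major hepatic member, ran the other way with 18338 in C57BL/6J and 19312 in RIIIS/J, against 26866 in BALB/CByJ, 23602 in FVB/NJ and 24537 in NZW/LacJ, a gap of -0.29. Cyp2c50 was separated by 0.03, with NZW/LacJ next to the high strains. In the remaining detected genes, Cyp2c38, Cyp2c68, Cyp2c54 and Cyp2c70, the strains overlapped. Cyp2c38 was high in RIIIS/J alone, at 349 in C57BL/6J and 7063 in RIIIS/J, against 349 in BALB/CByJ, 376 in FVB/NJ and 118 in NZW/LacJ. Cyp2c68 was lowest in RIIIS/J, at 11143 in C57BL/6J and 2763 in RIIIS/J, against 12173 in BALB/CByJ, 7527 in FVB/NJ and 7840.3 in NZW/LacJ. Cyp2c70, the enzyme of muricholic acid synthesis, read 14008 in C57BL/6J and 18554 in RIIIS/J, against 17038 in BALB/CByJ, 12638 in FVB/NJ and 16238 in NZW/LacJ. Cyp2c65 was below the floor on all 5 arrays. These genes belong to 1 family, and how far probes of one read RNA of another was not tested.

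**Figure D1:**
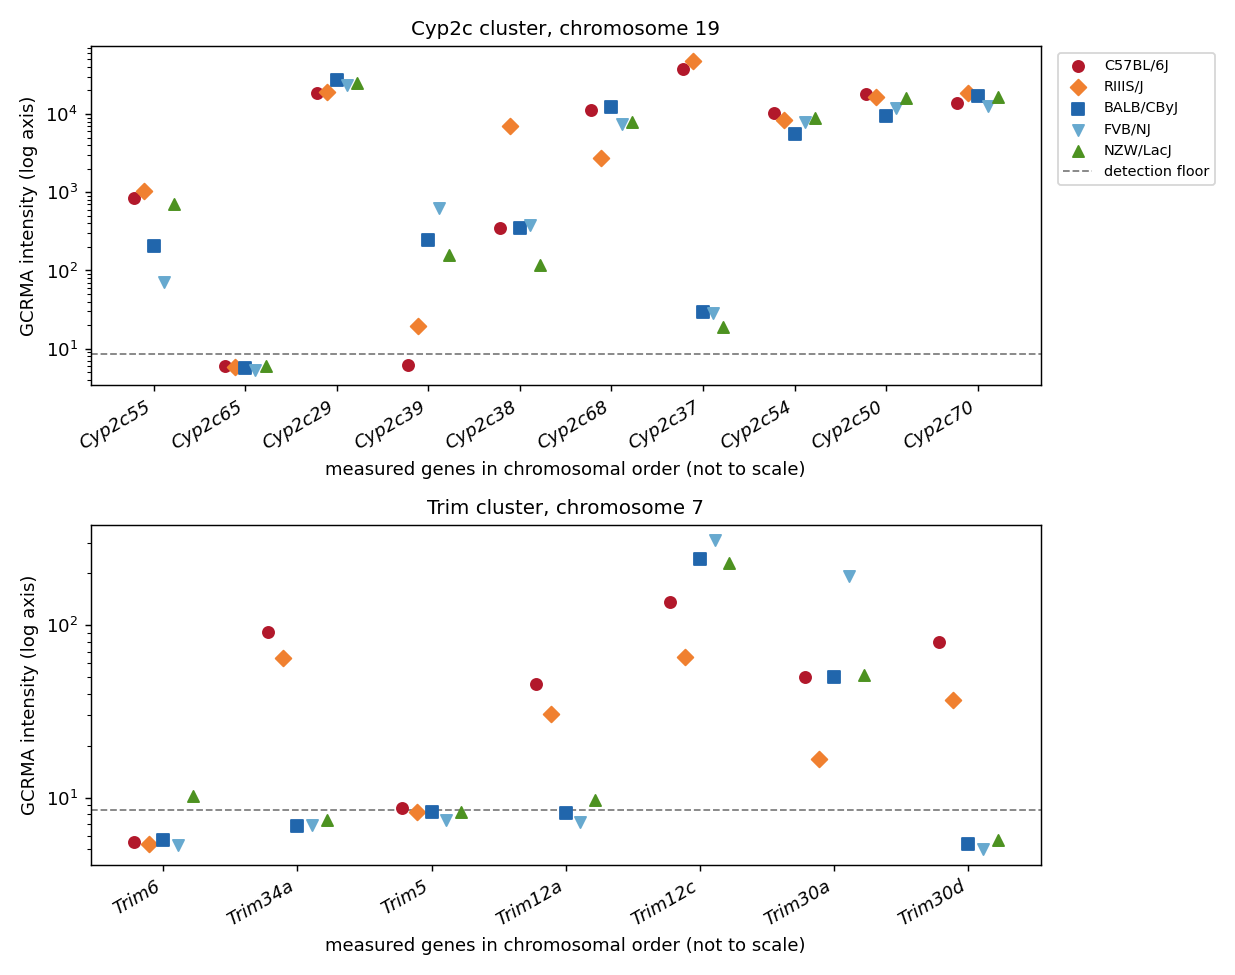
Intensity (log axis) of the measured genes of the Cyp2c cluster and of the Trim cluster in chromosomal order, 1 point per strain, with the detection floor of 8.48 as a dashed line. Cyp2c37 separates the strains by a gap of 10.30 log2 (37234 and 47003 against 18.7 to 29.5), and Trim12c is lower in C57BL/6J and RIIIS/J while Trim34a, Trim12a and Trim30d are higher.

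A group of Trim genes on chromosome 7 gave 3 of the 10 genes with a higher gap of at least 2-fold. Trim34a, Trim12a and Trim30d were higher in C57BL/6J and RIIIS/J, and Trim12c, which lies among them, was lower. Their start regions are shown because interferon acts on such genes through a response element. Capitals mark its core, which is GAAA, any 2 bases and GAAA again, searched on both strands, and which reads TTTC, 2 bases and TTTC on the printed strand.
Trim34a, chr7:104244207-104244506, plus strand: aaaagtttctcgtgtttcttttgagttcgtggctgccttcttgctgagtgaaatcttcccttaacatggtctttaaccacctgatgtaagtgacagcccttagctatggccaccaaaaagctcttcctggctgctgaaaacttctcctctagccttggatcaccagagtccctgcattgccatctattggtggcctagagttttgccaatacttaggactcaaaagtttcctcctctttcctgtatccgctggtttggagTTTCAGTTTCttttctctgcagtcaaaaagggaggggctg
Trim12a, chr7:104315446-104315745, minus strand: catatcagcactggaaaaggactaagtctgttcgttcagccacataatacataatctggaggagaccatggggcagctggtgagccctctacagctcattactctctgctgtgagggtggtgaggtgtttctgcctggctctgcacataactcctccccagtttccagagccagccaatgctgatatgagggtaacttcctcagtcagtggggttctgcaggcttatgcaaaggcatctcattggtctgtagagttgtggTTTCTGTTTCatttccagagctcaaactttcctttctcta
Trim12c, chr7:104353300-104353599, minus strand: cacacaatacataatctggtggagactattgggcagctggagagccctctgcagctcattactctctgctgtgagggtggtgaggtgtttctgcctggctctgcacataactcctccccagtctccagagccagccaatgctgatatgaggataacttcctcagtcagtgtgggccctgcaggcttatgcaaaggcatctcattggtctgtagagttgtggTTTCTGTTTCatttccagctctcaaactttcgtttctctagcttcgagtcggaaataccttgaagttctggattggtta
Trim30d, chr7:104507800-104508099, minus strand: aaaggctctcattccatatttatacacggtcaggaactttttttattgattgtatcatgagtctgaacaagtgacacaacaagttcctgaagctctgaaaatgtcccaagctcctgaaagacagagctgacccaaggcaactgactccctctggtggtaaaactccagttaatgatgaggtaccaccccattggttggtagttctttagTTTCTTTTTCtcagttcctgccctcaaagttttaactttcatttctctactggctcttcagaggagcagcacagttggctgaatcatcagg
Counting the start as base 1, the core began at base 11 in Trim34a and Trim12a, and at -29 in Trim12c and -41 in Trim30d. Of all 32851 RefSeq windows of this length, 1131 (3.44%) held the core on either strand. Among the other genes of the cluster, Trim5 and Trim30a held it and Trim6, Trim34b, Trim30b and Trim30c did not. The core was thus in the windows of the 3 higher genes, of the lower Trim12c and of Trim5 and Trim30a, whose strains overlapped. A match describes these letters only, and interferon activity was not tested. The windows of Trim12a and Trim12c were identical at 248 of 260 aligned bases (95.4%), with 80 gap bases left out.

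Trim34a read 90.9 in C57BL/6J and 64.5 in RIIIS/J, against 6.85 in BALB/CByJ, 6.93 in FVB/NJ and 7.44 in NZW/LacJ. The 3 low strains were all below the floor, so the lower of the high values was at least 7.61-fold higher. A second probe set of Trim34a ran the opposite way, with 12.5 in C57BL/6J and 11.97 in RIIIS/J, against 16.97 in BALB/CByJ, 25.8 in FVB/NJ and 16.01 in NZW/LacJ, a gap of -0.36. The direction of Trim34a therefore turns with the probe set. Trim30d read 79.5 in C57BL/6J and 36.9 in RIIIS/J, against 5.41 in BALB/CByJ, 5.03 in FVB/NJ and 5.65 in NZW/LacJ, at least 4.35-fold higher. A second probe set of Trim30d was near the floor, with overlapping strains, at 9.05 in C57BL/6J and 5.96 in RIIIS/J, against 5.68 in BALB/CByJ, 5.48 in FVB/NJ and 6.04 in NZW/LacJ. Trim12a read 45.3 in C57BL/6J and 30.4 in RIIIS/J, against 8.19 in BALB/CByJ, 7.17 in FVB/NJ and 9.68 in NZW/LacJ. NZW/LacJ was just above the floor and the gap was 1.65. Trim12c read 136 in C57BL/6J and 65.02 in RIIIS/J, against 242 in BALB/CByJ, 310.2 in FVB/NJ and 229 in NZW/LacJ, a gap of -0.75. A second, dimmer probe set of Trim12c overlapped, at 14.8 in C57BL/6J and 13.7 in RIIIS/J, against 13.4 in BALB/CByJ, 13.7 in FVB/NJ and 14.4 in NZW/LacJ. How far probes of Trim12a and Trim12c read the same RNA was not tested, and their opposite directions are reported as uncertain. Trim30a, a repressor of inflammatory signalling, overlapped at 50.4 in C57BL/6J and 16.8 in RIIIS/J, against 50.4 in BALB/CByJ, 193 in FVB/NJ and 51.1 in NZW/LacJ. Its second probe set also overlapped, at 36.7 in C57BL/6J and 27.1 in RIIIS/J, against 11.2 in BALB/CByJ, 39.2 in FVB/NJ and 20.3 in NZW/LacJ. The difference of means of Trim30a was -1.45 on the first and 0.61 on the second. Trim6 and Trim5 were near or below the floor. In all, 7 of the 10 genes of the cluster were on the array and detected on at least 1 of them.

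The other higher genes with a gap of at least 2-fold were enzyme genes of small molecules, a ubiquitin enzyme gene, a lipid droplet gene and an annotated pseudogene. Nnmt, which methylates nicotinamide, read 2913 in C57BL/6J and 5114 in RIIIS/J, against 424 in BALB/CByJ, 273 in FVB/NJ and 712 in NZW/LacJ. RIIIS/J was the highest and NZW/LacJ the nearest of the low strains, with a gap of 2.03. Xdh, the xanthine dehydrogenase gene of purine breakdown, read 1275 in C57BL/6J and 1035 in RIIIS/J, against 81.1 in BALB/CByJ, 142 in FVB/NJ and 460.5 in NZW/LacJ. The high strains lay close together and the other 3 spread widely, with a gap of 1.17. Rdh16f2, a short-chain dehydrogenase gene of the retinol dehydrogenase group, read 2158 in C57BL/6J and 1412 in RIIIS/J, against 96.9 in BALB/CByJ, 566 in FVB/NJ and 305 in NZW/LacJ. BALB/CByJ was the lowest and FVB/NJ the nearest to the high strains, with a gap of 1.32. Fitm1, which encodes a protein of lipid droplet formation, read 746 in C57BL/6J and 936 in RIIIS/J, against 36.7 in BALB/CByJ, 332 in FVB/NJ and 342 in NZW/LacJ. Its gap was 1.13, and BALB/CByJ stood well below FVB/NJ and NZW/LacJ.

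Ube2u, a ubiquitin-conjugating enzyme gene, read 30.6 in C57BL/6J and 57.02 in RIIIS/J, against 6.93 in BALB/CByJ, 6.16 in FVB/NJ and 7.19 in NZW/LacJ. It was below the floor in the 3 low strains and at least 3.62-fold higher in the other 2. Adh6-ps1, annotated as a pseudogene of the alcohol dehydrogenases, read 50.4 in C57BL/6J and 102 in RIIIS/J, against 19.8 in BALB/CByJ, 4.04 in FVB/NJ and 14.6 in NZW/LacJ, a gap of 1.34. FVB/NJ was below the floor. Nnmt, Ube2u, Adh6-ps1, Rdh16f2, Xdh and Fitm1 had no second detected probe set with a single gene.

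**Figure D2:**
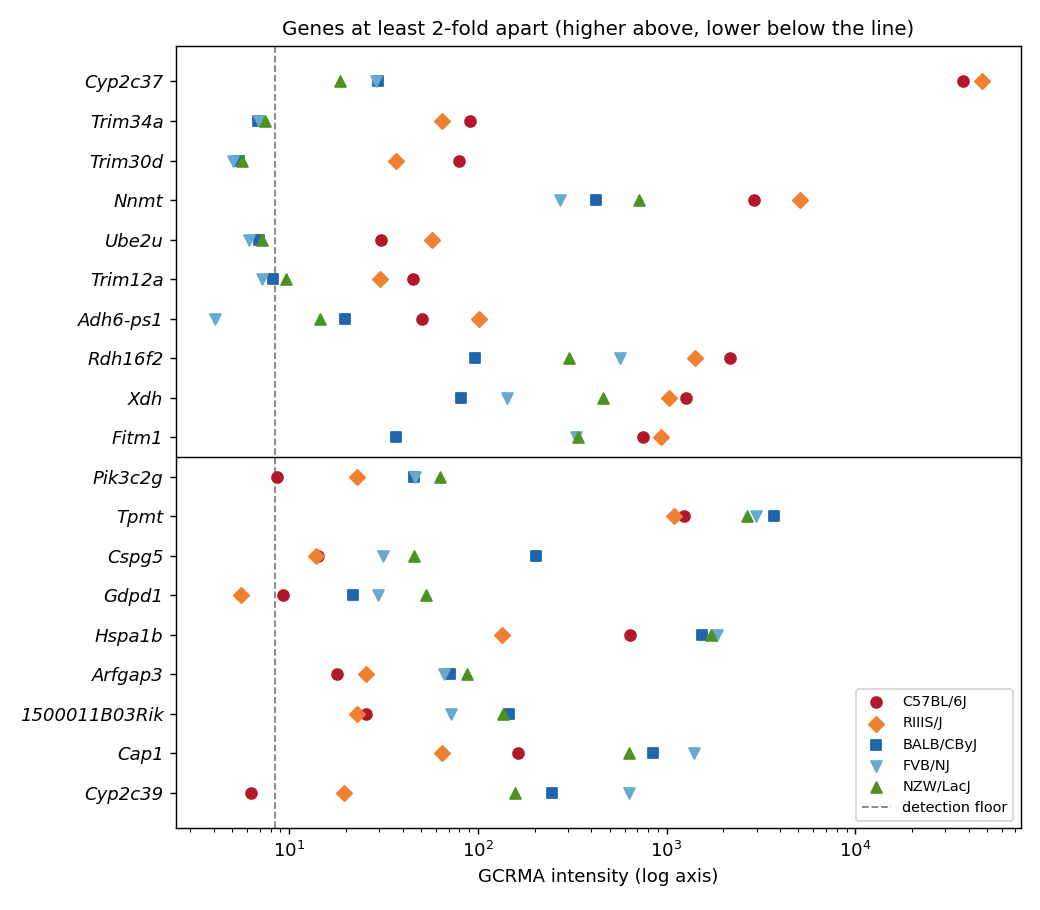
Intensity (log axis) of the 19 genes with a gap of at least 2-fold, 1 point per strain, higher genes above the horizontal line and lower genes below it, with the detection floor of 8.48 dashed. Cyp2c37 has a gap of 10.30 log2, the widest of the 19, and Trim34a, Trim30d and Ube2u rest on values below the floor in BALB/CByJ, FVB/NJ and NZW/LacJ.

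Among the lower genes, Cap1, which encodes an actin-binding protein that recycles actin monomers, was below the other strains on both of its probe sets. The more intense read 162 in C57BL/6J and 64.7 in RIIIS/J, against 852 in BALB/CByJ, 1406 in FVB/NJ and 632 in NZW/LacJ, a gap of -1.96. The second read 14.8 in C57BL/6J and 9.01 in RIIIS/J, against 403 in BALB/CByJ, 357 in FVB/NJ and 302 in NZW/LacJ, a gap of -4.35. RIIIS/J was the lowest strain on both. Hspa1b, an inducible Hsp70 chaperone gene, read 644 in C57BL/6J and 135 in RIIIS/J, against 1540.0 in BALB/CByJ, 1851 in FVB/NJ and 1718 in NZW/LacJ, a gap of -1.26. Its 2 further probe sets had gaps of -1.15 and -1.73. Hspa1b has a near-identical copy in Hspa1a, and probes may read both. C57BL/6J lay between RIIIS/J and the other 3 strains on all 3 Hspa1b probe sets.

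Tpmt, the thiopurine methyltransferase gene, read 1243 in C57BL/6J and 1098 in RIIIS/J, against 3691 in BALB/CByJ, 2975 in FVB/NJ and 2676 in NZW/LacJ, a gap of -1.11. Of its other 3 detected probe sets, 1 was separated the same way by -0.14 and on 2 the strains overlapped. Arfgap3, which acts on a small GTPase of the Golgi, read 18.03 in C57BL/6J and 25.5 in RIIIS/J, against 71.3 in BALB/CByJ, 66.6 in FVB/NJ and 87.9 in NZW/LacJ. All 3 other strains were more intense than either, with a gap of -1.39. Pik3c2g, a lipid kinase gene, read 8.68 in C57BL/6J and 22.8 in RIIIS/J, against 45.7 in BALB/CByJ, 46.4 in FVB/NJ and 62.97 in NZW/LacJ. Its gap of -1.001 was the smallest of the 9. 1500011B03Rik read 25.4 in C57BL/6J and 22.8 in RIIIS/J, against 146 in BALB/CByJ, 71.9 in FVB/NJ and 137 in NZW/LacJ, a gap of -1.499. Another of its probe sets was near the floor and overlapped, with a difference of means of 0.20 in the opposite direction. Cspg5, a membrane proteoglycan gene of the nervous system, read 14.2 in C57BL/6J and 13.9 in RIIIS/J, against 205 in BALB/CByJ, 31.5 in FVB/NJ and 46.1 in NZW/LacJ. BALB/CByJ was far above the rest and the gap was -1.15. Gdpd1, a lysophospholipase gene, read 9.30 in C57BL/6J and 5.58 in RIIIS/J, against 21.8 in BALB/CByJ, 29.7 in FVB/NJ and 52.8 in NZW/LacJ, a gap of -1.23, with RIIIS/J below the floor.

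At the 2-fold threshold, Fitm1 (a gap of 1.13) was just inside and Lhpp (0.88) just outside on the higher side. On the lower side Pik3c2g was just inside and Ctse just outside, at 2.001-fold and 1.999-fold. Ctse, the gene of the protease cathepsin E, read 113 in C57BL/6J and 125 in RIIIS/J, against 482 in BALB/CByJ, 251 in FVB/NJ and 2493 in NZW/LacJ. Its second probe set read 19.7 in C57BL/6J and 33.6 in RIIIS/J, against 239 in BALB/CByJ, 786 in FVB/NJ and 134 in NZW/LacJ, a gap of -1.99, so it was lower by more than the threshold there. NZW/LacJ was the most intense on the first and FVB/NJ on the second. Around a gap of 0, Fancd2os (5.98e-05) was just inside on the higher side and Ska1 just outside, with a gap of 0 since its strains overlapped by 7.48e-06 log2. On the lower side Ankra2 (-9.50e-05) was just inside and E130317F20Rik just outside, with a gap of 0 and an overlap of 4.53e-05 log2. Fancd2os and E130317F20Rik both rest on the floor, with C57BL/6J just above it and BALB/CByJ, FVB/NJ and NZW/LacJ below it. As deposited, C57BL/6J was the most intense array for E130317F20Rik, so that gene did not lean lower. Exact ties at 0 after raising to the floor numbered 825 on the higher side and 1154 on the lower, and these were not members.

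Oat and Lhpp, neighbours on chromosome 7, were the 1 pair of adjacent detected genes both separated the same way by at least 0.5 log2, a threshold chosen after seeing the values. Oat, the ornithine aminotransferase gene of pericentral hepatocytes, read 20383 in C57BL/6J and 24434 in RIIIS/J, against 11687 in BALB/CByJ, 10697 in FVB/NJ and 7536 in NZW/LacJ, a gap of 0.80. Lhpp, a phosphatase gene, read 1191 in C57BL/6J and 1351 in RIIIS/J, against 647 in BALB/CByJ, 506 in FVB/NJ and 474 in NZW/LacJ. Both were highest in RIIIS/J. Among 11852 genes placed in the reference order, 0 adjacent pairs were both separated by at least 2-fold, and 99 pairs were separated the same way by any gap. Of all detected genes 5.52% were higher and 5.02% lower. How many such pairs these shares alone would give was not worked out, so nothing is read from the 99.

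Further higher genes were led by Steap2, a metal reductase gene, with a gap of 0.84, Slc16a5, a gene of the monocarboxylate transporter family, with 0.83, and Acot1, an acyl-CoA thioesterase gene, with 0.83. Acot1 read 374 in C57BL/6J and 426 in RIIIS/J, against 132 in BALB/CByJ, 211 in FVB/NJ and 90.7 in NZW/LacJ. Tcea3, a transcription elongation factor gene, had a gap of 0.70, and Spc24, a kinetochore gene, one of 0.68. Abcc2, the canalicular export pump for conjugates, read 2078 in C57BL/6J and 4878 in RIIIS/J, against 1254 in BALB/CByJ, 827 in FVB/NJ and 1319 in NZW/LacJ, with RIIIS/J far above C57BL/6J and a gap of 0.66. Cyp17a1, a steroid hydroxylase gene, read 13.3 in C57BL/6J and 58.4 in RIIIS/J, against 6.73 in BALB/CByJ, 5.62 in FVB/NJ and 5.93 in NZW/LacJ. It was below the floor in the last 3 and at least 1.57-fold higher. The other bounds, for Tafa5, Stard9 and Pgpep1l, were under 0.25 log2. Pnliprp2, a pancreatic lipase gene, read 8.59 in C57BL/6J and 531 in RIIIS/J, against 7.37 in BALB/CByJ, 7.18 in FVB/NJ and 8.46 in NZW/LacJ. It was a member by a C57BL/6J value next to the floor, and RIIIS/J alone was high. The 4 detected genes of the exocrine pancreas list summed to 684 in C57BL/6J and 27987 in RIIIS/J, against 1272 in BALB/CByJ, 1053 in FVB/NJ and 832 in NZW/LacJ. RIIIS/J was far above the rest, and their part in the Pnliprp2 value was not tested.

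Further lower genes were Lmo2, a transcription cofactor gene of blood and endothelial cells, with a gap of -0.96, Zfp810, a zinc finger gene, with -0.92, Abi3bp, an extracellular matrix gene, with -0.78, and Lcorl with -0.78. Cxcl1, a chemokine gene that attracts neutrophils, read 123 in C57BL/6J and 22.6 in RIIIS/J, against 372 in BALB/CByJ, 226 in FVB/NJ and 360.4 in NZW/LacJ. RIIIS/J was well below C57BL/6J, and the gap was -0.87, with its 2 further probe sets separated the same way by -0.49 and -0.15. Lmo2 read 35.3 in C57BL/6J and 50.3 in RIIIS/J, against 97.6 in BALB/CByJ, 309 in FVB/NJ and 101 in NZW/LacJ, with FVB/NJ the most intense. Of 4 detected Lcorl probe sets, 2 were separated and on 2 the strains overlapped. Snhg4, AI467606 and 2610524H06Rik were below the floor in C57BL/6J and RIIIS/J and lower by bounds of at most 0.22 log2.

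Most members were separated by little. The median size of the gap was 0.05 log2 among the higher and 0.11 among the lower genes, and 575 of 655 and 462 of 596 gaps were under 0.25 log2. Gaps of at least 0.5 log2 numbered 31 among the higher and 39 among the lower genes. The gap exceeded the spread within both groups of strains in 50 higher and 58 lower genes, and in 7 of the 10 and 5 of the 9 with a gap of at least 2-fold. The spread was taken after values under the floor were set to it. It was therefore 0 among BALB/CByJ, FVB/NJ and NZW/LacJ for Trim34a, Trim30d and Ube2u, and smaller for Adh6-ps1 and Trim12a than as deposited. Between C57BL/6J and RIIIS/J it was smaller than as deposited for Cyp2c39 and Gdpd1. Of these genes, the higher ones are among the 7, Cyp2c39 is among the 5 and Gdpd1 is not. Genes at the 2-fold threshold were chosen by their gap, so nothing is read from these counts. Of C57BL/6J and RIIIS/J, C57BL/6J was the nearer to the other 3 in 405 higher and 379 lower genes, and RIIIS/J in 250 and 217. The nearest of the other strains was BALB/CByJ in 245, FVB/NJ in 120 and NZW/LacJ in 290 higher genes, and in 200, 186 and 210 lower genes. In both counts ties went to the strain named first, also ties of values set to the floor. Trim34a, Trim30d and Ube2u were so counted for BALB/CByJ, though NZW/LacJ was the nearest as deposited. Median intensity was 211 for higher and 225 for lower members, against 133 for all detected genes. Counts moved with the scaling, to 1050 higher and 593 lower genes after quantile normalisation and to 822 higher and 1057 lower after a loess correction. With 1 array left out fewer values had to be ordered, and higher and lower genes numbered 2330 and 2908 without C57BL/6J, 2715 and 1749 without RIIIS/J, 1186 and 958 without BALB/CByJ, 966 and 1212 without FVB/NJ, and 2009 and 1618 without NZW/LacJ. Those with a gap of at least 2-fold then numbered 133 and 232 without C57BL/6J, 69 and 66 without RIIIS/J, 16 and 20 without BALB/CByJ, 23 and 22 without FVB/NJ, and 25 and 37 without NZW/LacJ.

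A second probe set of the same gene reads other bases of its RNA on the same arrays, so it is no independent sample. Of the 655 higher genes 272 had a detected second probe set, and it was separated the same way in 50 (18.4%), the opposite way in 4 and not at all in 218. Of the 596 lower genes 336 had one, separated the same way in 69 (20.5%), the opposite way in 4 and not at all in 263. Among all 5247 genes with a detected second probe set, 5.30% of these were higher and 4.88% lower. H2-Ea, an MHC class II chain gene, read 43.1 in C57BL/6J and 40.3 in RIIIS/J, against 73.6 in BALB/CByJ, 73.6 in FVB/NJ and 204 in NZW/LacJ on its most intense probe set, a gap of -0.77. The second read 6.45 in C57BL/6J and 7.59 in RIIIS/J, against 122 in BALB/CByJ, 123 in FVB/NJ and 119.9 in NZW/LacJ, a gap of -3.82, with C57BL/6J and RIIIS/J below the floor.

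**Figure D3:**
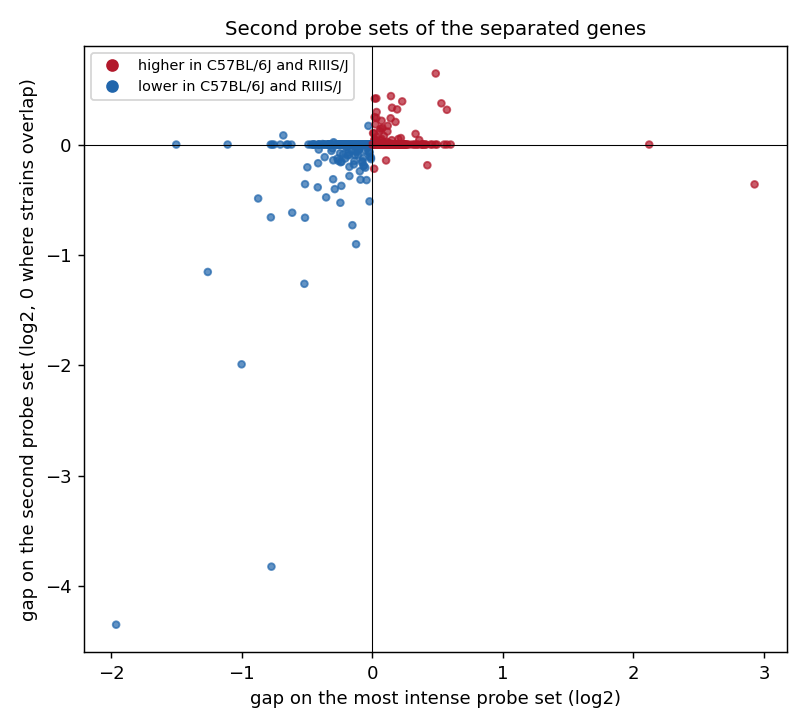
Gap on the second probe set against the gap on the most intense probe set (both log2) for members with a detected second probe set, red for higher and blue for lower genes. Most second probe sets lie on 0, where the strains overlap, the point at 2.93 and -0.36 is Trim34a, and the point at -1.96 and -4.35 is Cap1.

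Gene lists were counted against all detected genes, of which 655 were higher, 596 lower and the rest overlapping, with a median difference of -0.02 log2 between the mean of C57BL/6J and RIIIS/J and the mean of the other 3 strains. A list is described here and nothing is called particular to it. Of 48 lists, 27 held a higher and 20 a lower member, and 12 held neither. Cholesterol synthesis had 9 higher, 0 lower and 11 overlapping genes among 20 detected, with a median difference of 0.43. The higher genes ran along the pathway from Mvk and Pmvk, kinases of the mevalonate steps, through Idi1, Fdps and Sqle to Lss, Tm7sf2, Nsdhl and Dhcr7 of sterol formation. Idi1, an isomerase gene, read 6399 in C57BL/6J and 6362 in RIIIS/J, against 4993 in BALB/CByJ, 4718 in FVB/NJ and 3113 in NZW/LacJ. Nsdhl, a sterol dehydrogenase gene, read 2580.3 in C57BL/6J and 3171 in RIIIS/J, against 2038 in BALB/CByJ, 1681 in FVB/NJ and 1818 in NZW/LacJ. On these probe sets C57BL/6J and RIIIS/J lay close together in Idi1, and the gaps of the 9 genes were 0.07 to 0.35 log2. A second probe set of Idi1 overlapped, at 3204 in C57BL/6J and 2132 in RIIIS/J, against 2677 in BALB/CByJ, 2400.3 in FVB/NJ and 1824 in NZW/LacJ. Lss and Mvk also had further detected probe sets, and on all of these the strains overlapped, with differences of means of -0.60 and 0.16 for Lss and -0.27 for Mvk. Sqle, the squalene epoxidase gene, read 723 in C57BL/6J and 788 in RIIIS/J, against 580.3 in BALB/CByJ, 550.3 in FVB/NJ and 493 in NZW/LacJ. Srebf2, the regulator of the pathway, and Hmgcs1, its early synthase, were not separated. The median was 0.24 without NZW/LacJ, whose values lay lowest in Idi1, Sqle, Lss and Dhcr7.

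Pericentral hepatocyte genes, expressed around the central vein, had 7 higher and 0 lower genes among 17 detected, with a median of 0.41. They were Oat, Rhbg, Slc1a2, Cyp1a2, Aldh1a1, Cyp2e1 and Gulo. Rhbg, an ammonium transporter gene, read 94.1 in C57BL/6J and 172 in RIIIS/J, against 31.3 in BALB/CByJ, 53.6 in FVB/NJ and 69.8 in NZW/LacJ, a gap of 0.43. Slc1a2, a glutamate transporter gene, read 1071 in C57BL/6J and 473 in RIIIS/J, against 414 in BALB/CByJ, 414 in FVB/NJ and 166 in NZW/LacJ, with C57BL/6J far above RIIIS/J and a gap of 0.19. Of its other 3 detected probe sets, 1 was separated the same way by 0.32 and on 2 the strains overlapped, with differences of means of -0.70 and 0.26. Glul, the glutamine synthetase gene, was not separated, and Gulo was separated by 6.0e-05 log2. Without C57BL/6J the median was 0.26. Periportal genes, expressed around the portal vein, had 3 higher and 0 lower of 13, with a median of 0.16. These were Asl, Alb and Cps1. Without RIIIS/J the periportal median was 0.10 and without C57BL/6J it was 0.25.

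**Figure D4:**
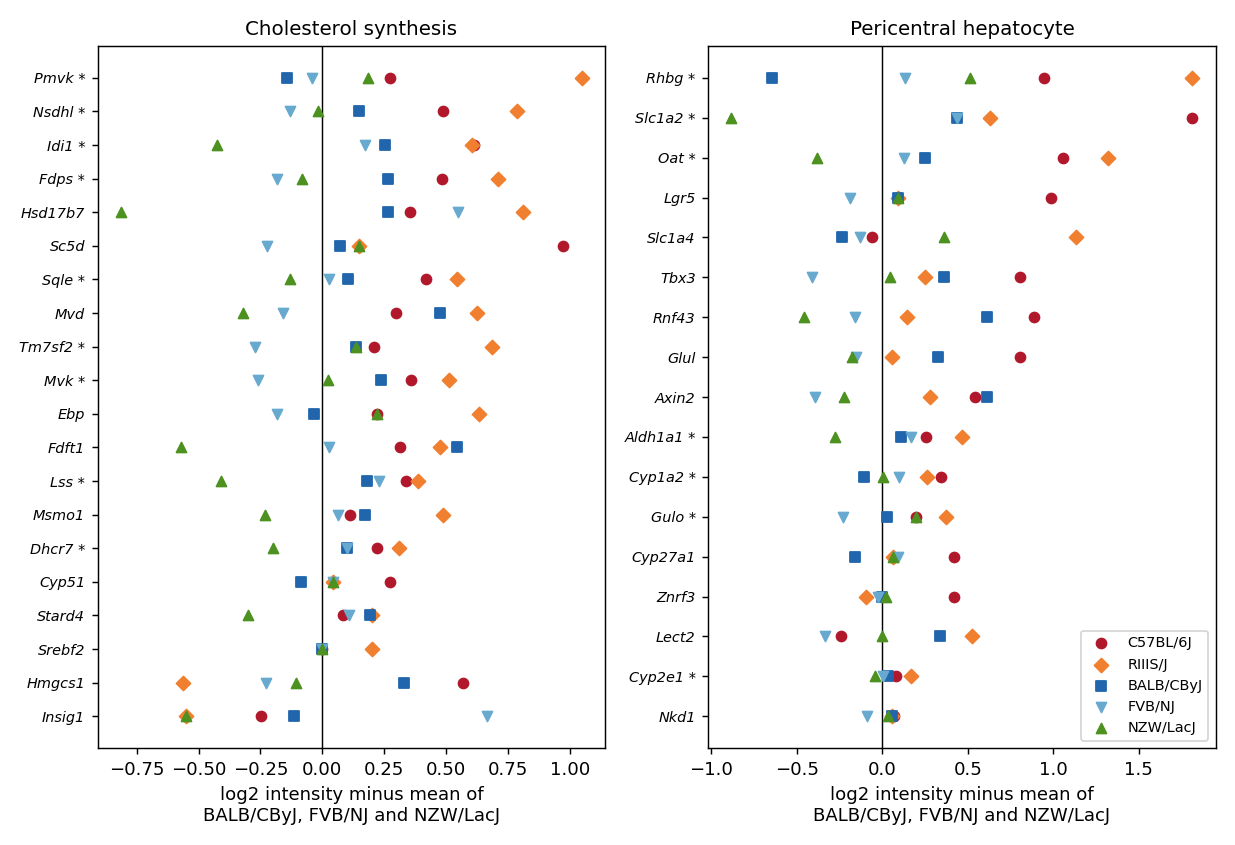
Log2 intensity of each detected cholesterol synthesis gene and pericentral hepatocyte gene minus its mean over BALB/CByJ, FVB/NJ and NZW/LacJ, 1 point per strain, with separated genes starred. C57BL/6J and RIIIS/J lie right of the other strains in 9 of 20 cholesterol genes and 7 of 17 pericentral genes, and 0 genes of either list are separated the other way.

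Urea cycle and amino acid catabolism had 8 higher and 0 lower of 26 detected genes, with a median of 0.20. Asl, the argininosuccinate lyase gene, read 8888 in C57BL/6J and 9900.2 in RIIIS/J, against 5162 in BALB/CByJ, 7719.7 in FVB/NJ and 6985 in NZW/LacJ, a gap of 0.20. Prodh, Hgd and Hpd, enzyme genes of proline and tyrosine breakdown, had gaps of 0.14, 0.11 and 0.09. Tdo2, another of the 8, overlapped on its other detected probe sets, with differences of means of -0.26 and -1.61. The median of this list was 0.31 without C57BL/6J, 0.17 without FVB/NJ and 0.18 without RIIIS/J. Targets of PPAR-alpha with other genes of fatty acid oxidation had 8 higher and 0 lower of 27, with a median of 0.27. Beside Acot1 they included Pdk4, a kinase gene that restrains glucose oxidation, at 79.99 in C57BL/6J and 277 in RIIIS/J, against 54.8 in BALB/CByJ, 50.8 in FVB/NJ and 59.5 in NZW/LacJ. Cd36, a fatty acid uptake gene, read 1027 in C57BL/6J and 467 in RIIIS/J, against 148 in BALB/CByJ, 248 in FVB/NJ and 397 in NZW/LacJ. NZW/LacJ lay close to RIIIS/J, and on its 2 other detected probe sets the strains overlapped, with differences of means of 0.86 and 0.83. The median of that list was 0.04 without NZW/LacJ and 0.08 without C57BL/6J.

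Alcohol and aldehyde dehydrogenases had 5 higher and 0 lower of 17, with a median of 0.15. Aldh3a2, a fatty aldehyde dehydrogenase gene, read 3448 in C57BL/6J and 2598 in RIIIS/J, against 1778 in BALB/CByJ, 1623 in FVB/NJ and 889 in NZW/LacJ, a gap of 0.55. Aldh7a1, a lysine breakdown enzyme gene, read 12305 in C57BL/6J and 14756 in RIIIS/J, against 9181 in BALB/CByJ, 8483 in FVB/NJ and 8626 in NZW/LacJ, a gap of 0.42. Its second detected probe set ran the opposite way, at 53.3 in C57BL/6J and 20.03 in RIIIS/J, against 82.2 in BALB/CByJ, 60.6 in FVB/NJ and 62.8 in NZW/LacJ, a gap of -0.19, so the direction of Aldh7a1 turns with the probe set. That median was 0.08 without C57BL/6J and 0.08 without FVB/NJ. Fatty acid and triglyceride synthesis had 3 higher (Acacb, Pklr and Elovl6) and 0 lower of 21, with a median of 0.25, which was 0.11 without C57BL/6J and 0.15 without NZW/LacJ. The difference of means of Pklr turned to -0.37 on 1 of its 2 other detected probe sets. Oxidative phosphorylation had 4 higher and 0 lower of 29 and the proteasome 4 higher and 0 lower of 24, all with gaps of at most 0.06 log2. The family 2 cytochrome P450 list had 5 higher and 2 lower of 28, the 2 being Cyp2c39 and Cyp2c29. Cyp2c23, an arachidonic acid epoxygenase gene, read 10741 in C57BL/6J and 10558 in RIIIS/J, against 599 in BALB/CByJ, 10473 in FVB/NJ and 419.9 in NZW/LacJ. Its gap was 0.01, since FVB/NJ lay just under C57BL/6J and RIIIS/J and the other 2 strains were far lower.

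**Figure D5:**
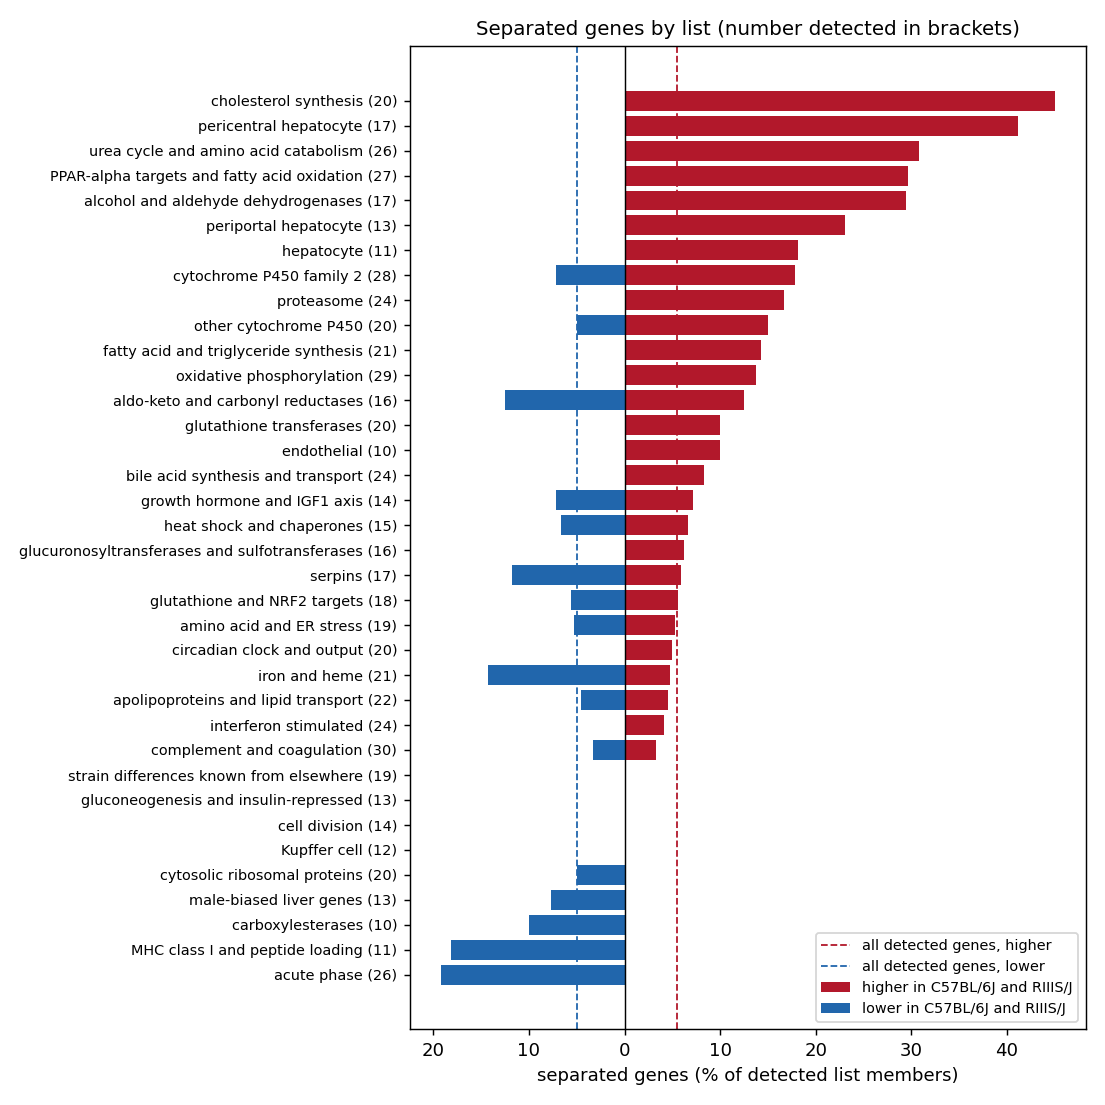
Share of detected list members that were separated (percent), higher in C57BL/6J and RIIIS/J to the right and lower to the left, for lists with at least 10 detected genes, whose number stands in brackets. Dashed lines give the shares of all detected genes (5.52% and 5.02%), and cholesterol synthesis has 45.0% higher and acute phase 19.2% lower genes.

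Acute phase genes, which encode plasma proteins of inflammation, had 0 higher and 5 lower of 26 detected genes, with a median of -0.19. Apcs, the serum amyloid P gene, read 3324 in C57BL/6J and 2782 in RIIIS/J, against 12028 in BALB/CByJ, 4926 in FVB/NJ and 21309 in NZW/LacJ, a gap of -0.57. Saa2, a serum amyloid A gene, read 193 in C57BL/6J and 80.1 in RIIIS/J, against 225 in BALB/CByJ, 225 in FVB/NJ and 5624 in NZW/LacJ, with NZW/LacJ far above all others and a gap of -0.23. Serpina3n, Hamp and Cp, genes of a protease inhibitor, the iron hormone hepcidin and ceruloplasmin, had gaps of -0.09, -0.0025 and -0.0004. Hamp and Cp were thus nearly tied, and each was separated the same way in 4 of 6 processing settings. On the second probe set of Hamp and on all 7 other detected probe sets of Cp the strains overlapped. On 1 of those of Cp the difference of means turned to 0.81. The acute phase median was -0.03 without NZW/LacJ and -0.35 without FVB/NJ. Iron and heme genes had 1 higher (Blvrb) and 3 lower (Slc40a1, Hmox1 and Hamp) of 21, with a median of -0.20. Hmox1, like Hamp, was nearly tied, with a gap of -0.0048, and was separated the same way in 4 of 6 processing settings. Slc40a1, the iron exporter ferroportin, read 4076 in C57BL/6J and 2528 in RIIIS/J, against 5802 in BALB/CByJ, 6598 in FVB/NJ and 4878 in NZW/LacJ, a gap of -0.26. That median was -0.12, -0.09 and -0.09 without C57BL/6J, RIIIS/J and FVB/NJ, and -0.41 without NZW/LacJ.

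Lists of the immune system varied with single arrays. Interferon-stimulated genes had 1 higher (Ifi27, a gap of 0.02) and 0 lower of 24 detected, with a median of -0.17. This interferon median was -0.72 without C57BL/6J and 0.22 without RIIIS/J. MHC class I and peptide loading had 0 higher and 2 lower of 11, Tap2 and Psmb8, with a median of -0.33. A second probe set of Psmb8 overlapped, with a difference of means of 0.16. That median was -0.04 without RIIIS/J, -0.19 without FVB/NJ and -0.86 without C57BL/6J. MHC class II had 0 higher and 1 lower of 9, H2-Ea, with a median of -1.51, which was -0.36 without FVB/NJ, -0.60 without RIIIS/J and -2.27 without BALB/CByJ or NZW/LacJ. The 7 detected B cell markers summed to 235 in C57BL/6J and 243 in RIIIS/J, against 233 in BALB/CByJ, 17778 in FVB/NJ and 111 in NZW/LacJ. FVB/NJ was far above the rest and 0 of them were separated. Their median, with values under the floor set to it, was -1.96, and it was 0.06 without FVB/NJ and -2.94 and -2.98 without BALB/CByJ and without NZW/LacJ. The 8 T and NK cell markers summed to 59.7 in C57BL/6J and 58.7 in RIIIS/J, against 57.7 in BALB/CByJ, 427 in FVB/NJ and 59.4 in NZW/LacJ, with a median of -0.68 that was 0.0091 without FVB/NJ and -1.02 without BALB/CByJ or NZW/LacJ. The 12 Kupffer cell markers summed to 6296 in C57BL/6J and 3737 in RIIIS/J, against 4212 in BALB/CByJ, 8317 in FVB/NJ and 6766 in NZW/LacJ. Of these 0 were separated, and the median of -0.27 was 0.12 without RIIIS/J, -0.82 without C57BL/6J, -0.47 without BALB/CByJ and -0.08 without FVB/NJ. The part of these cells in the class I and class II values was not tested.

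Hepatocyte markers summed to 402521 in C57BL/6J and 447778 in RIIIS/J, against 388229 in BALB/CByJ, 365936 in FVB/NJ and 398472 in NZW/LacJ. Of 11 detected, 2 were higher, Alb and Cps1, with gaps of at most 0.09 log2. All 11 had a positive difference of means, with a median of 0.09, which was 0.16 without C57BL/6J or NZW/LacJ. Circadian clock genes had 1 higher (Rora) and 0 lower of 20. Of the 6 other detected probe sets of Rora, some were separated the same way, by 0.067, 0.073 and 0.175 log2. On the rest the strains overlapped, and on 1 of them the difference of means turned to -0.0048. The clock median of -0.47 was 0.22 without RIIIS/J, -1.04 without C57BL/6J, -0.30 without BALB/CByJ and -0.81 without NZW/LacJ. Genes with strain differences known from elsewhere had 0 separated of 19. Detected genes per array numbered 11118 in C57BL/6J and 11032 in RIIIS/J, against 10783 in BALB/CByJ, 10997 in FVB/NJ and 11078 in NZW/LacJ. The ratio of 3′ to 5′ actin probe sets was 3.93 in C57BL/6J and 2.76 in RIIIS/J, against 3.80 in BALB/CByJ, 4.98 in FVB/NJ and 3.73 in NZW/LacJ, so RIIIS/J was lowest and FVB/NJ highest. The same ratio for Gapdh was 0.993 in C57BL/6J and 0.901 in RIIIS/J, against 0.950 in BALB/CByJ, 1.011 in FVB/NJ and 0.954 in NZW/LacJ, with the same lowest and highest array and a narrower range. The part of these ratios in the gaps was not tested.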

How the data were processed

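Liver RNA of 5 inbred strains was measured on Affymetrix Mouse430_2 arrays, 1 per strain, with RNA of 3 males pooled on each. The deposited values are linear intensities, for which the submitters' processing notes name GCOS and GCRMA. Their versions and settings, the array batches and the hour of collection are not given in the sources used here, and the genotyping files were not used here.

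Of 45101 probe sets, 34970 had 1 gene in the platform annotation, which can be old, 920 had several and 9211 none. Of the first, 34754 matched the reference gene table. Each of 18202 genes took its probe set with the highest mean log2 value. Lower values were set to the floor, so folds against them are lower bounds, and 10350 genes were detected on all 5 arrays. Genes below 2-fold were named for the 15 largest measured gaps and the 8 largest bounds per direction, for list membership by gap (up to 4 per list) and for the thresholds. Other genes named, and more than 4 in a list, were chosen after their values were seen. The split, the members and the lists were chosen with earlier results of these data known.

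Other settings tried were the 99th percentile as floor (27.8), no floor, the mean of probe sets, no _s_at, _x_at or _a_at probe sets, quantile normalisation, loess correction with span 0.3, a 4-fold gap, other probe sets and leaving out each array. The counting was tested on simulated data. Start regions were RefSeq windows on GRCm38.p6, found for 15 of the 19 genes with a gap of at least 2-fold. The array table names no build. The tools were statsmodels 0.14.6, Biopython 1.88, matplotlib 3.10.9, pandas 2.3.3 and scipy 1.17.1, run with numpy 2.4.6 in Python 3.11.15.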

Additional observations from a re-analysis of the deposited data

Results flagged for a closer look

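Probe sets with several genes or none in the annotation gave no gene value. Of 4139 detected ones, 4 (0.0966%) were at least 2-fold higher and 3 (0.0725%) at least 2-fold lower in C57BL/6J and RIIIS/J. The shares of all detected genes were close to these, at 0.0842% higher and 0.0758% lower, so nothing is read from the counts. The one with the largest higher gap read 77.9 in C57BL/6J and 209 in RIIIS/J, against 13.6 in BALB/CByJ, 12.2 in FVB/NJ and 13.96 in NZW/LacJ, a gap of 2.48 log2. The one with the largest lower gap read 5.73 in C57BL/6J and 10.6 in RIIIS/J, against 39.5 in BALB/CByJ, 74.4 in FVB/NJ and 74.5 in NZW/LacJ, a gap of -1.90. Another lower one read 15.3 in C57BL/6J and 19.96 in RIIIS/J, against 65.1 in BALB/CByJ, 82.9 in FVB/NJ and 835 in NZW/LacJ, with NZW/LacJ far above the rest. Whether these probe sets read RNA of genes named above was not tested. The 5 strains have 1 array each, so no array was compared with others of its strain.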

How the results depend on the processing

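No paired analysis was possible because there was 1 array for every strain. Genes without overlap numbered 655 higher and 596 lower. Higher genes fell to 472 at the floor of the 99th percentile and rose to 1050 after quantile normalisation. Lower genes fell to 468 without _s_at, _x_at and _a_at probe sets and rose to 1057 after loess correction. With a gap of at least 2-fold there were 10 higher and 9 lower genes, and 6 and 6 at the floor of the 99th percentile. These were 7 and 8 without _s_at, _x_at and _a_at probe sets, 9 and 7 with the mean of probe sets, 10 and 7 after quantile normalisation and 10 and 8 after loess. A 4-fold gap left 4 and 1. Leaving out 1 array in turn gave 966 to 2715 higher and 958 to 2908 lower genes, and 16 to 133 and 20 to 232 with a gap of at least 2-fold. Of the 19 genes, 16 were separated the same way in every processing setting that gave a value, and Trim34a, Gdpd1 and Tpmt failed in 1 of 6. The median difference of all detected genes moved little, to 0.01 after quantile normalisation and -0.03 after loess.

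Differences of means reversed for Trim34a (-0.65 without _s_at, _x_at and _a_at probe sets and on its second probe set), Lcorl (0.11 on the dimmest of its 4 detected probe sets), 1500011B03Rik (0.20 on its second), Aldh7a1 (-1.06 on its second, -0.14 with the mean of probe sets) and Lss (-0.60 on its second and without _s_at, _x_at and _a_at probe sets, -0.024 with the mean of probe sets). They also reversed on another probe set for Cp (0.81), Mvk (-0.27), Pklr (-0.37), Psmb8 (0.16), Rora (-0.0048), Slc1a2 (-0.70) and Trim12c (0.043). Reversal was not judged for every separated list member. Among those left out, Tdo2 of amino acid catabolism had differences of -0.26 and -1.61 on its other detected probe sets. Psma3, a higher gene of the proteasome list, had -0.26 on its second. List medians reversed when RIIIS/J was left out for Kupffer cell (0.12, with a range of -0.82 to 0.12 over the arrays left out), stellate cell (0.048, -0.57 to 0.048), circadian clock (0.22, -1.04 to 0.22) and Y-linked genes with Xist (0.058, -0.38 to 0.058, and 0.010 with the mean of probe sets). They reversed when BALB/CByJ was left out for major urinary proteins (-0.49, -0.49 to 1.97), and when FVB/NJ was left out for B cell (0.056, -2.98 to 0.056), T and NK cell (0.0091, -1.02 to 0.0091) and cell division (0.093, -0.91 to 0.093). The cause was not tested. Of the remaining values under other settings, 957 differences of single genes and 465 list medians moved little (by at most the wider spread within a group of strains, or 0.2 log2 for a list), and 27 and 48 moved more. Reversal was judged only for lists with a median of at least 0.2 in size. With 1 array per strain, dim probe sets near the floor limit the smaller gaps.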
